A study of Mus musculus with 12 samples.

Results

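The glucocorticoid receptor, encoded by Nr3c1, and 7 genes that supply its hormone or respond to it were followed through fasting and refeeding in mouse liver. The 7 genes are Hsd11b1, Fkbp5, Tsc22d3, Sgk1, Dusp1, Klf9 and Zbtb16. All probe sets that the array's annotation assigns to 1 of these 8 symbols were taken, which gave 26 of 45101 probe sets and 8 of the 18194 genes measured. A probe set is a group of short probes that together give 1 value for a transcript.

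Liver RNA came from SV129XC57Bl/6 mice in 4 groups of 3 Affymetrix arrays, and each array held RNA pooled from 3 animals, so n = 3 pools per group throughout. The groups were control fasted, control refed (fasted and then fed again), LG2KO fasted and LG2KO refed. The LG2KO mice are labelled tamoxifen treated and the controls carry no such label, so genotype and tamoxifen cannot be told apart. LG2KO is read here as loss of the glucose transporter Glut2, encoded by Slc2a2, in the liver. The source label of the LG2KO fasted arrays reads fasted/refed, while their titles and diet labels read fasted, and the latter were used. The labels do not give age, sex, how long the mice were fasted or refed, or what drives the deletion.

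Glucocorticoids are adrenal steroid hormones that rise in the blood in fasting and stress. The receptor waits in the cytoplasm in a complex with heat shock proteins, binds the hormone, enters the nucleus and turns genes on or off. In the liver it is known for raising gluconeogenesis and amino acid breakdown during a fast. The enzyme encoded by Hsd11b1 regenerates active hormone from its inactive form inside the cell. Hormone levels were not analysed here, so the values below are transcripts only.

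The Slc2a2 transcript lay at 10.002 to 11.30 on the log2 scale in the 6 control arrays and at 3.56 to 4.13 in the 6 LG2KO arrays. Whether its probes lie inside the deleted stretch could not be read from the labels. Markers of hepatocytes, the main cells of the liver, had a mean log2 level of 13.75 to 13.92 on every array, over the 9 of 10 markers that were measured. Arrays of 1 group correlated at 0.984 to 0.996. Control refed replicate 1 and LG2KO fasted replicate 3 stood apart from the rest, at 37.1 and -31.4 on the second principal component (28.1% of the variance), so results that rest on them are given with and without them. Control fasted replicate 3 carried exocrine pancreas transcripts, whose 7 measured markers averaged 8.26 there and at most 5.78 elsewhere.

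The receptor binds DNA as a dimer at a palindrome of a pair of half-sites, AGAACA and TGTTCT, with a spacer of 3 bases. Start regions of 6 of the 8 genes, 13 in all, were found in RefSeq (mouse build GRCm38.p6), each from 250 bases before to 50 bases after an annotated start. Nr3c1 and Zbtb16 were not matched. The full palindrome (AGAACA, any 3 bases, TGTTCT) stood in 1 of the 13, at the fifth of 6 Sgk1 starts. Of all 32851 mouse start regions of this length, 0.00913% (3) held it on either strand. A lone half-site, AGAACA or TGTTCT, stood in 19.0% of all regions. It was found at Sgk1 starts 1, 4 and 5 and at Tsc22d3 start 2, where the count at Sgk1 start 5 includes both parts of the palindrome. The Sgk1 region is shown for its palindrome, which begins 189 bases before the start. The Fkbp5 and Klf9 regions are shown because these genes changed on refeeding while neither window holds these letters. Sgk1 lies at chr10:21993640-21993939 on the plus strand, Fkbp5 at chr17:28486100-28486399 on the minus strand and Klf9 at chr19:23140976-23141275 on the plus strand. Capitals mark half-sites and the palindrome.
Sgk1: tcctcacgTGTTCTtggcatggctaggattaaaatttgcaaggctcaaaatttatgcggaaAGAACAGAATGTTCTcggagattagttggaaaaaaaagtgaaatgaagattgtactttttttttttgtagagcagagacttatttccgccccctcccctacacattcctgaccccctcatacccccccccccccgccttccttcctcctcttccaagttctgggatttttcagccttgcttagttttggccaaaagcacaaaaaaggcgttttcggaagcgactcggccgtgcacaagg
Fkbp5: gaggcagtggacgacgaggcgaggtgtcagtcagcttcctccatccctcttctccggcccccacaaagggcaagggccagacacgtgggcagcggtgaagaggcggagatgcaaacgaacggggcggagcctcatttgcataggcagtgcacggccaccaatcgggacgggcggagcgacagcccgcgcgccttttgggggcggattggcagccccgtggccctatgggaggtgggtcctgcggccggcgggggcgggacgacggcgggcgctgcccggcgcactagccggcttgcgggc
Klf9: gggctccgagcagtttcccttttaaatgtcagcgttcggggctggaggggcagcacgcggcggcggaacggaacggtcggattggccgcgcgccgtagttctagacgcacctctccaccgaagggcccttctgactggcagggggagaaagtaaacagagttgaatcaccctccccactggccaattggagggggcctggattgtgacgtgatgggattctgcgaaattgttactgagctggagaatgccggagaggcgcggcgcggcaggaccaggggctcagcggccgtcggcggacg
A match is a description of letters and not a bound site, and the absence of one says nothing about binding elsewhere.

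The first question was how these genes differed between fasted and refed liver. Refeeding lowered 3 of the 8 transcripts in both genotypes, Fkbp5, Zbtb16 and Klf9. In controls the Klf9 call held under only 9 of 24 alternative settings and the Zbtb16 call under 15 of 23. None of the 8 rose. The transcript of the receptor itself, of Hsd11b1 and of Tsc22d3 did not pass the test in either genotype. Differences were tested with limma over all 18194 genes. A gene is said to pass, rise or fall where its adjusted p is below 0.05. In controls 6.46% of all genes passed (3.17% lower), and in LG2KO livers 7.05% (2.4% lower), against 3 of 8 members, or 37.5%, in each. These were the genes among the 8 whose refed and fasted arrays did not overlap in either genotype, as was the case for 20.5% of all genes in controls and 22.5% in LG2KO livers. The median difference of the 8, refed minus fasted, was -0.35 in controls and -0.49 in LG2KO livers on the log2 scale, beside -0.01 and 0.01 for all genes. The 8 members were chosen with earlier results of these data known, so their shares and medians are a description. In whole liver, fewer cells of a type and less RNA per cell cannot be told apart. Among the marker lists of other cell types, 3 did not overlap between fasted and refed controls. The mean log2 level of all 10 endothelial markers was 7.98 to 8.01 fasted and 7.78 to 7.91 refed, that of 5 of 6 cholangiocyte markers 5.65 to 5.73 and 5.82 to 6.23, and that of 5 of 7 adipose markers 5.18 to 5.42 and 4.68 to 5.10. Within these 3 lists the endothelial marker Stab2 passed as lower in controls and the adipose marker Cidec as lower in both genotypes. No other marker of the 3 lists passed, and Cidec was the only adipose marker at an unadjusted limma p below 0.05. In LG2KO livers these lists overlapped, and the 9 hepatocyte markers averaged 13.81 to 13.89 fasted and 13.78 to 13.79 refed. The hepatocyte markers include Tat, also listed below as a glucocorticoid-induced gene, and Cps1, named below as alike to Klf9. Their mean is therefore not an independent reading of hepatocyte content. The part of all these markers in the results below was not tested.

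**Figure D1:**
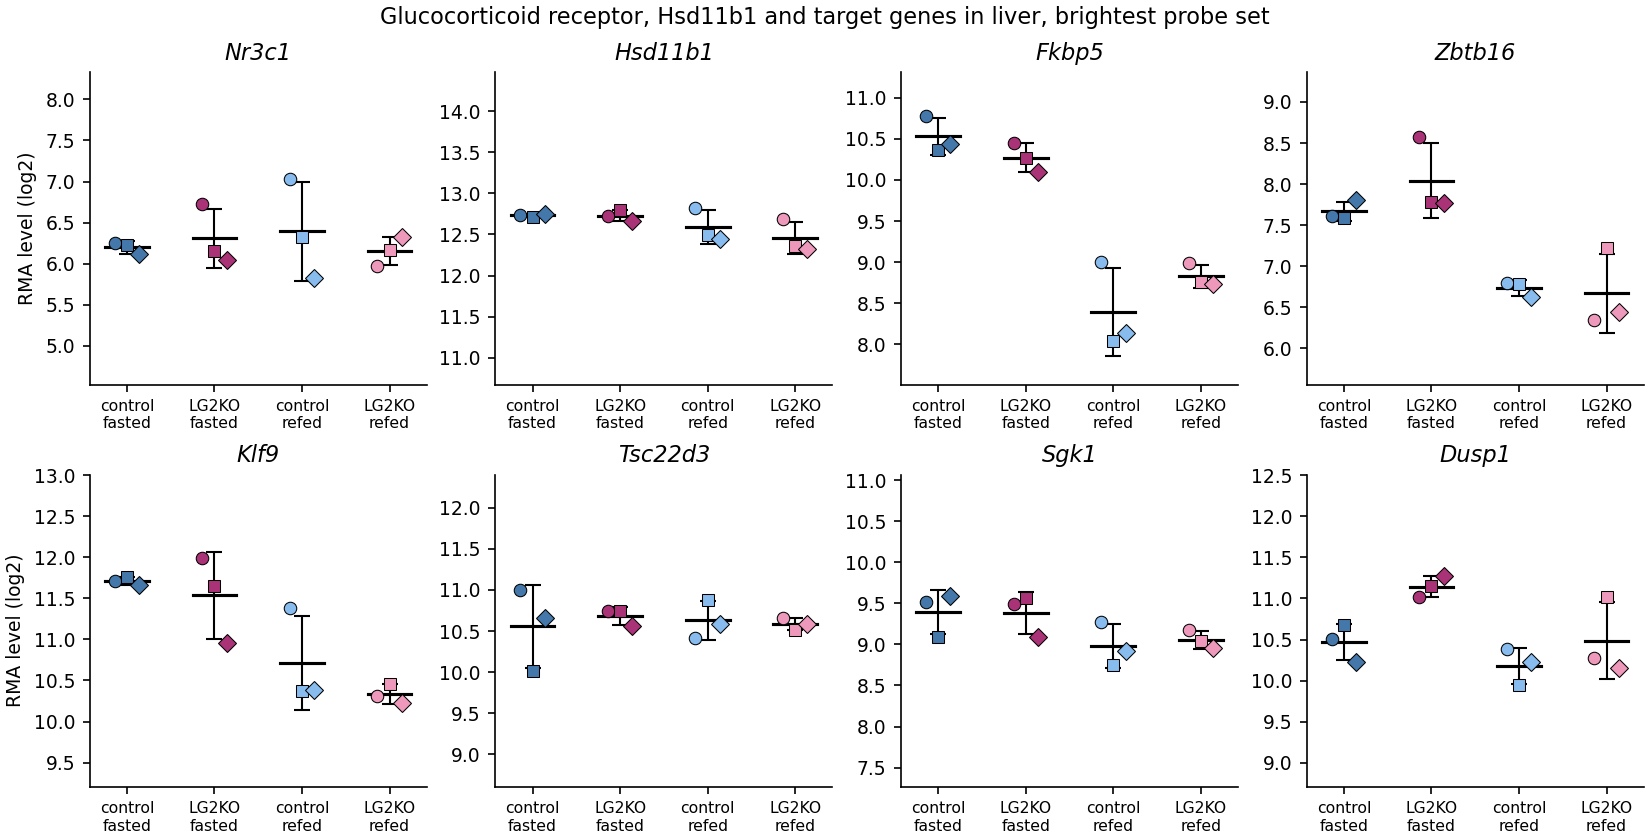
Log2 RMA level of the 8 genes on each of the 12 arrays, by group, 1 panel per gene with the brightest probe set. Circles, squares and diamonds are replicates 1, 2 and 3, bars are the group mean ± SD, and every panel spans the same number of log2 units. Refed arrays of Fkbp5, Zbtb16 and Klf9 lie below fasted arrays of the same genotype, while those of Nr3c1 and Tsc22d3 overlap.

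Fkbp5 showed the largest difference of the 8. It encodes a co-chaperone that lowers the receptor's affinity for its hormone, and it is a textbook induced target that feeds back on the receptor. Its log2 level was 10.78, 10.37 and 10.44 in control fasted replicates 1 to 3, and 9.003, 8.04 and 8.14 in control refed ones. In LG2KO livers it was 10.45, 10.26 and 10.10 fasted, and 8.99, 8.76 and 8.73 refed. Every refed array lay below every fasted array, across genotypes as well. Fkbp5 fell by 2.14 ± 0.22 (SE, log2) in controls, which is 4.39-fold (limma, adjusted p = 7.98e-05), and fell by 1.45 ± 0.22 in LG2KO livers, which is 2.72-fold (adjusted p = 0.00147). A further probe set of Fkbp5 fell by 1.79 ± 0.20 in controls and fell by 1.24 ± 0.20 in LG2KO livers, and the last was dim, at the 4.004 percentile of the mean over arrays, with differences of 0.12 and -0.14. The difference of Fkbp5 passed under all 24 alternative settings in both genotypes. Without the 2 arrays that stood apart it was -2.44 in controls and -1.53 in LG2KO livers, and without control fasted replicate 3, which carried pancreas transcripts, it was -2.18 in controls.

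Zbtb16, also called Plzf, encodes a zinc finger repressor that glucocorticoids induce in several tissues. Its log2 level was 7.62, 7.59 and 7.80 in control fasted livers and 6.80, 6.78 and 6.62 in control refed ones. In LG2KO livers it was 8.57, 7.79 and 7.77 fasted and 6.35, 7.22 and 6.44 refed. The refed arrays were again lower without overlap, and LG2KO fasted replicate 1 was the highest of the 12. Zbtb16 fell by 0.94 ± 0.24 in controls, 1.91-fold (limma, adjusted p = 0.0355), and fell by 1.37 ± 0.24 in LG2KO livers, 2.59-fold (adjusted p = 0.00425). The LG2KO call held under all 23 alternatives that could be run. The control call held under 15 of 23 and was lost without any single array of its own 6. Without control refed replicates 1, 2 and 3 the adjusted p was 0.0542, 0.0953 and 0.116, at differences of -0.97, -0.96 and -0.88. Without control fasted replicates 1, 2 and 3 it was 0.0963, 0.0868 and 0.125, at differences of -0.96, -0.98 and -0.87. It was also lost with arrays centred on their median (adjusted p = 0.0511).

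Klf9 encodes a Krüppel-like transcription factor that glucocorticoids and thyroid hormone induce. Its log2 level was 11.71, 11.76 and 11.66 in control fasted livers and 11.38, 10.38 and 10.38 in control refed ones. In LG2KO livers it was 11.99, 11.65 and 10.96 fasted and 10.32, 10.46 and 10.22 refed. The arrays nearest to the opposite feeding state were control refed replicate 1 and LG2KO fasted replicate 3, the same pair that stood apart over all genes. Klf9 fell by 0.997 ± 0.27 in controls, 1.995-fold (limma, adjusted p = 0.0437), and fell by 1.20 ± 0.27 in LG2KO livers, 2.30-fold (adjusted p = 0.0162). Without that pair the difference was -1.33 in controls (adjusted p = 2.04e-05) and -1.49 in LG2KO livers (adjusted p = 1.19e-05). The control call held under 9 of 24 alternatives, with a highest adjusted p of 0.18. It was lost without the intensity trend, with robust eBayes, with only the groups compared and with arrays centred on their median. The same held with every probe set tested and with the mean of a gene's probe sets. In controls it was lost without control refed replicate 2 (0.18) or 3 (0.162), control fasted replicate 1 (0.124), 2 (0.133) or 3 (0.104), LG2KO refed replicate 1 (0.0637), 2 (0.0622) or 3 (0.0607), or LG2KO fasted replicate 2 (0.0621), at differences of -0.83 to -1.02 (adjusted p in brackets). The LG2KO call held under 20 of 24 and was lost without LG2KO refed replicate 1 (adjusted p = 0.0503) or 3 (0.0674) or LG2KO fasted replicate 1 (0.0722) or 2 (0.0677), at differences of -1.20, -1.15, -0.97 and -1.14.

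The receptor transcript did not follow this pattern. For Nr3c1 the log2 level was 6.25, 6.23 and 6.11 in control fasted livers, 7.03, 6.32 and 5.83 in control refed, 6.72, 6.15 and 6.05 in LG2KO fasted and 5.97, 6.16 and 6.32 in LG2KO refed livers. All groups overlapped, and the control refed arrays held both the highest and the lowest value of the 12. The difference was 0.19 ± 0.26 in controls, with a 95% interval of -0.36 to 0.75 (limma, adjusted p = 0.834), and -0.16 ± 0.26 in LG2KO livers, from -0.71 to 0.40 (adjusted p = 0.872). Without control refed replicate 1 the control difference was -0.12. The 6 Nr3c1 probe sets gave differences of -0.17 to 0.30 in controls and -0.35 to 0.01 in LG2KO livers, and 0 of them passed. A p above the threshold does not show that the level stayed the same.

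Hsd11b1, the enzyme that regenerates the active hormone, spanned a narrow range. It lay at 12.74, 12.71 and 12.74 in control fasted livers, 12.83, 12.50 and 12.45 in control refed, 12.73, 12.80 and 12.66 in LG2KO fasted and 12.68, 12.36 and 12.32 in LG2KO refed livers. The refed arrays were lower on average but overlapped the fasted ones in both genotypes. The difference was -0.14 ± 0.11 in controls (limma, adjusted p = 0.614) and -0.27 ± 0.11 in LG2KO livers (adjusted p = 0.167), with a 95% interval of -0.50 to -0.05. Without LG2KO refed replicate 1 the LG2KO difference was -0.39 (adjusted p = 0.0411), and without the 2 arrays that stood apart it was -0.31 (adjusted p = 0.0371). It also passed with array weights, so 3 of 24 alternatives passed.

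Tsc22d3, known as Gilz, encodes a leucine zipper protein through which glucocorticoids damp inflammatory signalling. Its log2 level was 10.999, 10.01 and 10.66 in control fasted livers, 10.42, 10.88 and 10.59 in control refed, 10.74, 10.75 and 10.56 in LG2KO fasted and 10.65, 10.51 and 10.59 in LG2KO refed livers. The control fasted arrays held both the highest and the lowest value of the 12. The difference was 0.07 ± 0.20 in controls, with a 95% interval of -0.36 to 0.50 (limma, adjusted p = 0.934), and -0.10 ± 0.20 in LG2KO livers, from -0.53 to 0.33 (adjusted p = 0.9). The 4 Tsc22d3 probe sets lay between -0.13 and 0.07 in both genotypes, and 0 passed.

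Sgk1 encodes a kinase induced by serum and glucocorticoids, and Dusp1 a phosphatase that switches off MAP kinases. For Sgk1 the log2 level was 9.51, 9.09 and 9.59 in control fasted livers, 9.27, 8.75 and 8.92 in control refed, 9.49, 9.56 and 9.09 in LG2KO fasted and 9.18, 9.04 and 8.96 in LG2KO refed livers. Refed arrays were mostly lower, and in each genotype the highest refed array lay above the lowest fasted one. The difference was -0.42 ± 0.17 in controls, with a 95% interval of -0.79 to -0.04 (limma, adjusted p = 0.224), and -0.32 ± 0.17 in LG2KO livers, from -0.69 to 0.05 (adjusted p = 0.375). Without the 2 arrays that stood apart both passed, at -0.56 (adjusted p = 0.0213) and -0.47 (adjusted p = 0.0371). Both also passed with array weights. For Dusp1 the log2 level was 10.50, 10.67 and 10.23 in control fasted livers, 10.38, 9.95 and 10.22 in control refed, 11.01, 11.15 and 11.27 in LG2KO fasted and 10.28, 11.02 and 10.16 in LG2KO refed livers. The refed arrays tended lower, and LG2KO refed replicate 2 overlapped its fasted group. The difference was -0.29 ± 0.20 in controls (limma, adjusted p = 0.576) and -0.66 ± 0.20 in LG2KO livers (adjusted p = 0.0722), where it was -0.93 without LG2KO refed replicate 2 (adjusted p = 0.00554). The LG2KO difference of Dusp1 passed under 4 of 24 alternatives. Besides leaving out that array, they were array weights and the filters that keep the upper 50% or 25% of genes by mean.

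**Figure D2:**
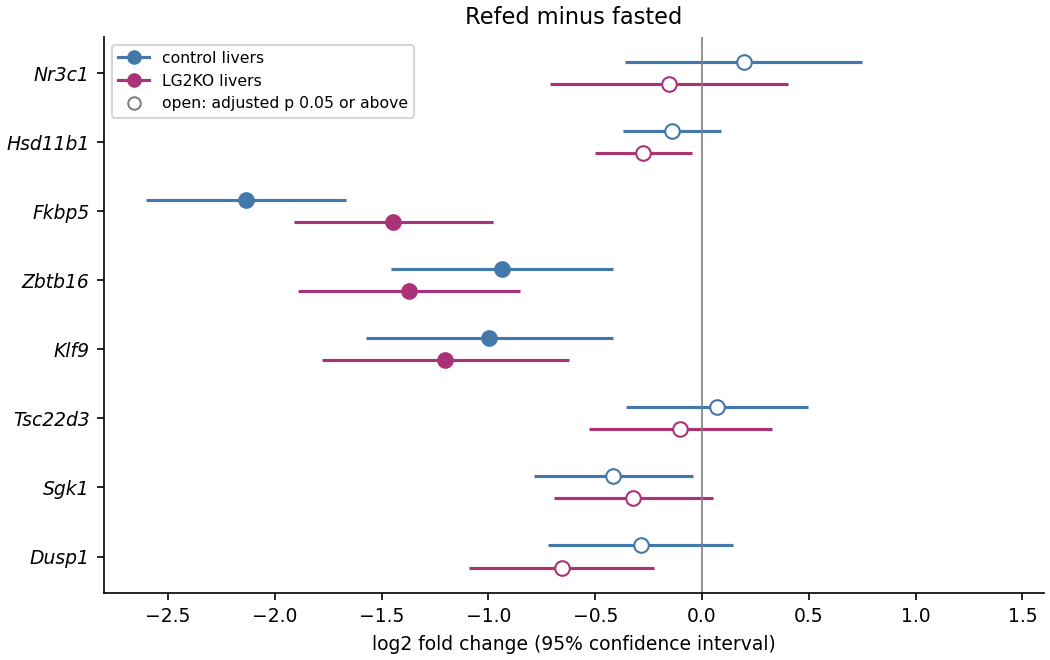
Refed minus fasted difference (log2) of the 8 genes in each genotype, with 95% intervals from limma, where filled symbols passed at an adjusted p below 0.05. Fkbp5, Zbtb16 and Klf9 are filled in both genotypes, at -2.14, -0.94 and -0.997 in controls and -1.45, -1.37 and -1.20 in LG2KO livers, and the other 5 are open.

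All probe sets of a gene were then read side by side, in a fit over the 34958 probe sets with a single symbol. In controls 18 of the 26 were lower after refeeding and 3 passed, beside 4.79% of all probe sets tested. In LG2KO livers 24 were lower and 8 passed, beside 5.03% of all. These 8 were 4 of Klf9, 2 of Fkbp5 and 2 of Zbtb16, so several read the same gene and are not separate members. The share of all probe sets that were lower is not given here. All 7 Klf9 probe sets were lower in both genotypes, with differences of -0.03 to -0.997 in controls, where 0 passed in this larger fit, and -0.06 to -1.35 in LG2KO livers, where 4 passed. All 3 Zbtb16 probe sets were lower too. The Zbtb16 probe set with the largest difference gave -1.26 ± 0.36 in controls (limma, adjusted p = 0.0698) and fell by 1.88 ± 0.36 in LG2KO livers (adjusted p = 0.00862), while another differed by -0.09 and -0.27. Probe sets whose names end in _s_at or _x_at can also read related transcripts.

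**Figure D3:**
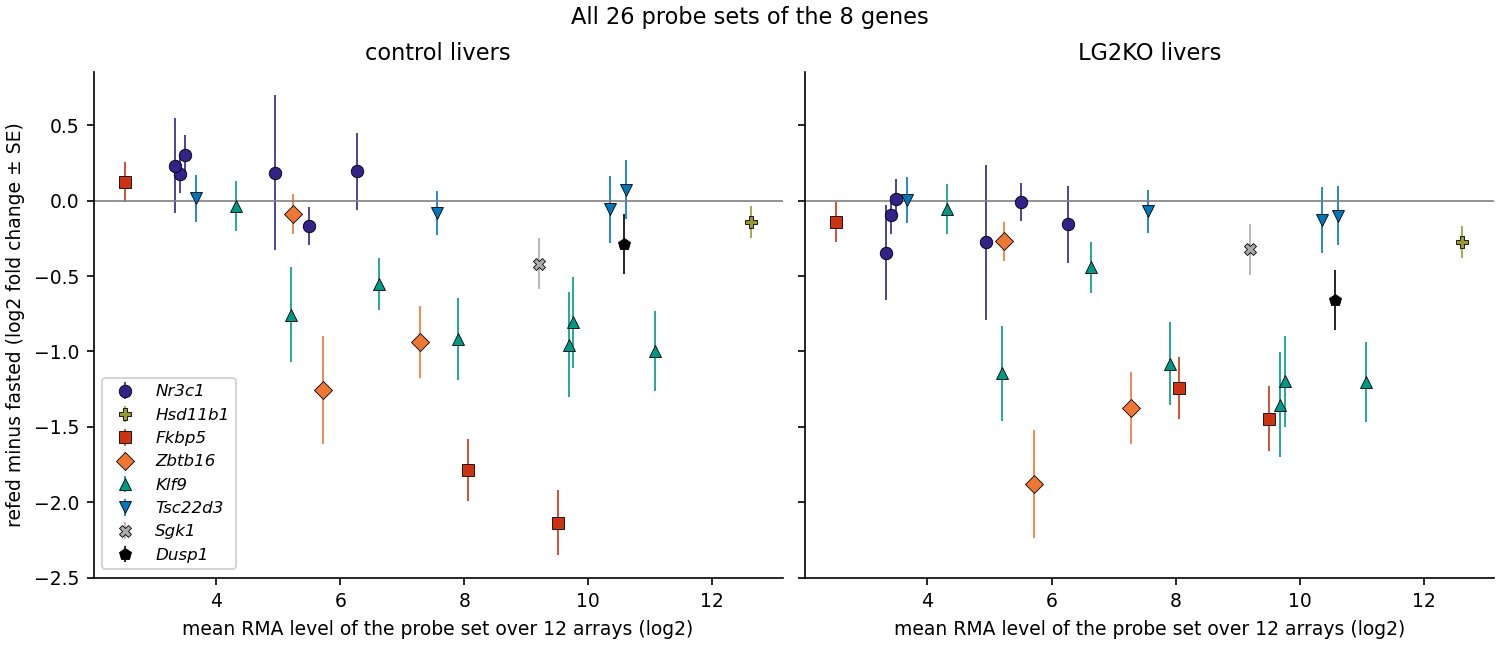
Refed minus fasted difference (log2, ± SE) of the 26 probe sets against their mean log2 level over the 12 arrays, by genotype. Brighter probe sets of Fkbp5 and Klf9 lie well below 0, while the Fkbp5 probe set at the far left of the level axis lies at 0.12 and -0.14.

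The second question was whether genotype changed any of these levels. No member passed between LG2KO and control livers, refed or fasted, and the refeeding difference of no member differed between genotypes by the interaction test. The share of all genes that passed was 0.379% refed, 0.396% fasted and 0.0055% for the interaction, so few genes passed overall. At an unadjusted limma p below 0.05 there were 0 of 8 members refed, 1 fasted (Dusp1) and 1 for the interaction (Fkbp5). Of all genes 9.13% refed, 5.2% fasted and 4.73% for the interaction had such a p. The refeeding and genotype comparisons share arrays.

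Dusp1 was highest in fasted LG2KO livers. Its 3 LG2KO fasted arrays, given above, all lay above its 3 control fasted arrays, and it was the only one of the 8 whose fasted genotype groups did not overlap, as did 10.8% of all genes. The difference was 0.67 ± 0.20, with a 95% interval of 0.24 to 1.11, and did not pass over all genes (limma, adjusted p = 0.369). It passed under 0 of 24 alternatives, with adjusted p from 0.0786 to 0.889. In refed livers the Dusp1 difference was 0.30 ± 0.20 (adjusted p = 0.709), and averaged over feeding it was 0.49 ± 0.14 (adjusted p = 0.181), where 0 of 8 members passed, 1.02% of all genes passed and Dusp1 was the 1 member with an unadjusted p below 0.05, as had 8.86% of all genes.

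Fkbp5 was the member with the largest interaction. Its fall was larger in controls by 0.69 ± 0.30 on the log2 scale, with a 95% interval of 0.03 to 1.35 (limma, adjusted p = 0.99, from 0.14 to 1 over 23 alternatives). Refed LG2KO livers exceeded refed controls in Fkbp5 by 0.43 ± 0.22 (adjusted p = 0.597) and control refed replicate 1, at 9.003, lay above all 3 LG2KO refed arrays. The refed difference passed under 2 of 24 alternatives, at 0.69 with array weights (adjusted p = 0.0423) and 0.74 without the 2 arrays that stood apart (adjusted p = 0.0499). For Zbtb16 the interaction was -0.44 ± 0.34 and for Klf9 -0.21 ± 0.38, with 95% intervals of -1.17 to 0.30 and -1.02 to 0.61. Apart from Fkbp5 and Dusp1, the genotype differences of the members lay between -0.38 (Klf9, refed) and 0.37 (Zbtb16, fasted).

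**Figure D4:**
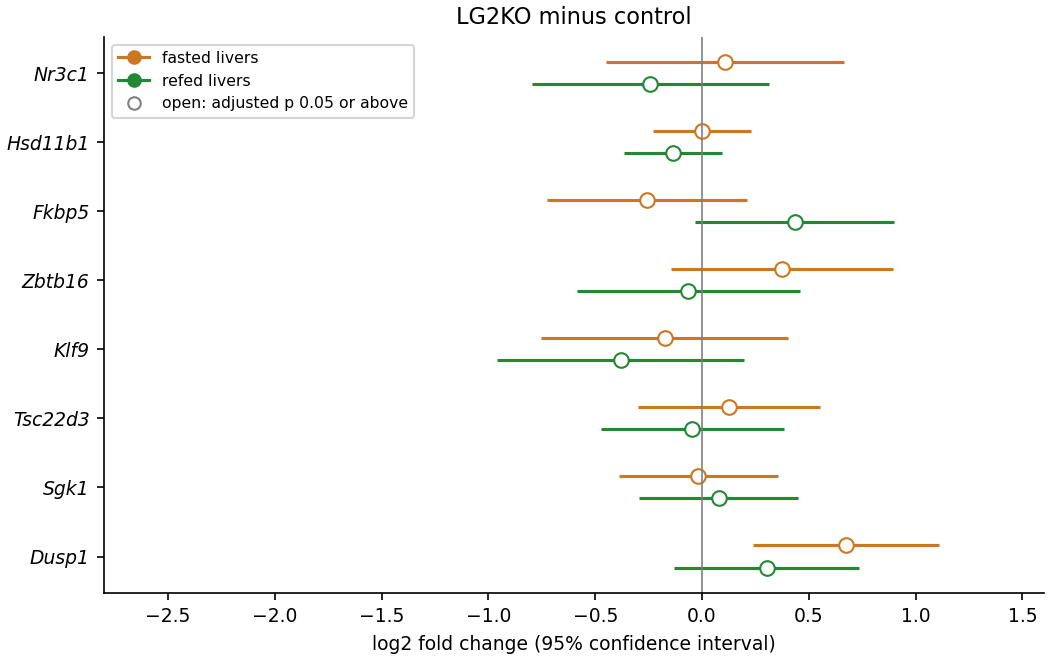
LG2KO minus control difference (log2) of the 8 genes, refed and fasted, with 95% intervals from limma. All symbols are open because none passed. The Dusp1 fasted interval, 0.24 to 1.11, is the one that excludes 0.

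Genes around the receptor were grouped by role, in lists chosen with earlier results of these data known. Of a list of 10 chaperones and co-chaperones linked to the receptor, 7 were measured, and Hsp90ab1, Ptges3 and Ppid were not. In each genotype 3 rose, or 42.9% of the 7, with none lower, while Fkbp5, a relative of the same complex, fell. Of all 18194 genes 599 rose in controls and 847 in LG2KO livers. Fkbp4, which aids transport of the receptor and acts against Fkbp5, rose by 1.30 ± 0.11 in controls, 2.47-fold (limma, adjusted p = 1.73e-05), and by 1.40 ± 0.11 in LG2KO livers, 2.64-fold (adjusted p = 1.05e-05). Stip1, which links Hsp70 to Hsp90, rose by 1.26 ± 0.12 and 1.28 ± 0.12. Both passed under all 24 alternatives in both genotypes. Hsp90aa1, an Hsp90 gene, rose by 1.72 ± 0.40 (adjusted p = 0.023) and 1.58 ± 0.40 (adjusted p = 0.0331). The Hsp90aa1 call in controls was lost without control refed replicate 1 (1.41, adjusted p = 0.0654) or 2 (1.77, 0.0658) or control fasted replicate 1 (1.58, 0.0975) or 3 (1.58, 0.0904). In LG2KO livers it was lost without LG2KO refed replicate 2 (1.33, 0.14) or 3 (1.49, 0.123) or LG2KO fasted replicate 2 (1.57, 0.0991) or 3 (1.23, 0.0854). The median of the 7 chaperones was 0.89 in controls and 0.86 in LG2KO livers.

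Of 42 further genes known to be induced by glucocorticoids, 40 were measured. In controls 14 fell and 1 rose, and in LG2KO livers 10 fell and 2 rose, with medians of -0.53 and -0.42. Of the 40, 35% fell in controls and 25% in LG2KO livers, beside 3.17% and 2.4% of all genes. Because the list was chosen with earlier results of these data known, these shares are a description. Many of these genes also answer to insulin and other fasting signals, so the list is not specific to this receptor. The largest falls were in the metallothioneins, metal-binding proteins, with Mt2 at -4.38 ± 0.32 in controls and -2.62 ± 0.32 in LG2KO livers and Mt1 at -3.86 ± 0.28 and -2.33 ± 0.28 (limma, adjusted p at most 0.000402 in each). Got1, an aspartate aminotransferase, fell by 2.09 ± 0.15 in controls and fell by 1.602 ± 0.15 in LG2KO livers. Lpin1, a phosphatidate phosphatase, fell by 1.53 ± 0.18 and, in LG2KO livers, fell by 2.15 ± 0.18. Angptl4, an inhibitor of lipoprotein lipase, fell by 1.34 ± 0.20 in controls and fell by 1.37 ± 0.20 in LG2KO livers. Tgm2, a transglutaminase, rose by 0.87 ± 0.12 and 1.05 ± 0.12. The glucose-6-phosphatase gene G6pc fell by 1.05 ± 0.15 in LG2KO livers (adjusted p = 0.00117) and differed by -0.23 ± 0.15 in controls. Except for the control value of G6pc, these calls held under every alternative run. Without the 2 arrays that stood apart 20 of the 40 were lower in controls and 16 in LG2KO livers, and without control fasted replicate 1 the control count was 9. Over the 24 alternatives the count of all genes that passed ran from 695 to 2454 in controls and from 697 to 3578 in LG2KO livers. In the main fit it was 1176 and 1283. Its value without these 2 arrays is not given here.

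Other named targets were less clear. Per1, a clock gene that the receptor induces directly, fell by 0.78 ± 0.17 in controls (limma, adjusted p = 0.0178) and differed by -0.62 ± 0.17 in LG2KO livers (adjusted p = 0.0519). The Per1 call was lost without control refed replicate 2 (-0.75, adjusted p = 0.0694) or control fasted replicate 1 (-0.72, 0.0795) or 3 (-0.66, 0.0815). Pck1, the gluconeogenic carboxykinase, fell by 0.72 ± 0.16 in controls (adjusted p = 0.0153) and fell by 0.58 ± 0.16 in LG2KO livers (adjusted p = 0.0429). The control call of Pck1 was lost without control fasted replicate 1 (-0.66, 0.0709). Its LG2KO call was lost without any single array of the 6 LG2KO arrays other than LG2KO refed replicate 1, with differences of -0.51 to -0.63 and adjusted p from 0.0506 to 0.161, and also without control refed replicate 3 (0.0559) or control fasted replicate 1 (0.0565), 2 (0.0591) or 3 (0.0625). Tat, tyrosine aminotransferase, differed by -0.36 ± 0.11 (adjusted p = 0.0936) and -0.04 ± 0.11 (0.931), and Igfbp1, a binding protein for insulin-like growth factors, by -1.597 ± 0.59 (0.162) and -0.81 ± 0.59 (0.581).

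Genes for hormone supply and clearance did not pass. Of 11 listed, 9 were measured and 0 passed with limma in either genotype, with 0 in controls and 1 in LG2KO livers at an unadjusted p below 0.05. Of all genes 16.7% in controls and 18.2% in LG2KO livers had such a p. H6pd, which makes the cofactor for the Hsd11b1 enzyme, differed by -0.20 ± 0.11 in controls and 0.04 ± 0.11 in LG2KO livers. Serpina6, the plasma carrier of corticosteroids, differed by 0.26 ± 0.19 and 0.01 ± 0.19. Without the 2 arrays that stood apart 2 of the 9 passed as lower in each genotype, a setting for which the share of all genes is not given.

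The remaining lists are set beside all genes, of which 6.46% passed in controls and 7.05% in LG2KO livers. Of 18 coregulators and partners of the receptor 16 were measured. In controls 1 passed, or 6.25%, namely Hnf4a, a liver transcription factor, at -0.31 ± 0.08 (limma, adjusted p = 0.0399). In LG2KO livers 3 passed, with 12.5% of the list higher and 6.25% lower. Smarca4, a chromatin remodeller, rose by 0.42 ± 0.10, Cebpa rose by 0.38 ± 0.09, and Ppargc1a, a coactivator of gluconeogenic genes, fell by 0.58 ± 0.13. In controls these 3 differed by 0.35 ± 0.10, 0.12 ± 0.09 and -0.37 ± 0.13 (adjusted p = 0.0598, 0.574 and 0.14). Hnf4a differed by -0.14 ± 0.08 in LG2KO livers (0.417). The Hnf4a call was lost without control refed replicate 2 or 3, any control fasted array, LG2KO refed replicate 2 or LG2KO fasted replicate 1 or 2 (adjusted p from 0.0501 to 0.162, differences of -0.26 to -0.35). The Smarca4 call was lost without LG2KO refed replicate 1 or 3 or LG2KO fasted replicate 1 (0.0872 to 0.106, differences of 0.37 to 0.39). The Cebpa call was lost without LG2KO refed replicate 1 or 2 or LG2KO fasted replicate 1 or 2 (0.0588 to 0.0882, differences of 0.32 to 0.38), and that of Ppargc1a without LG2KO refed replicate 2 or 3 or LG2KO fasted replicate 1 or 2 (0.067 to 0.0907, differences of -0.49 to -0.57). Without the 2 arrays that stood apart 3 of the 16 passed as lower in controls and 7 in LG2KO livers. The share of all genes under that setting is not given. Of 14 inflammatory genes that the receptor represses, 0 passed in controls (1 at an unadjusted p below 0.05). In LG2KO livers Cxcl10, a chemokine, rose by 0.93 ± 0.21 (adjusted p = 0.0167) and Icam1, an adhesion molecule, by 0.48 ± 0.13 (0.0443). In controls they differed by 0.40 ± 0.21 (0.379) and 0.02 ± 0.13 (0.978). This pair was 14.3% of the 14. The Cxcl10 call was lost without any LG2KO refed array or LG2KO fasted replicate 1 (0.0521 to 0.0613, differences of 0.88 to 0.96). The Icam1 call was lost without any LG2KO refed array, LG2KO fasted replicate 1 or 2, or replicate 2 or 3 of either control group (0.0508 to 0.197, differences of 0.38 to 0.55). The markers of macrophages were also higher in refed than fasted LG2KO livers in 9 of 10 cases, with a median difference of 0.24, 3 at an unadjusted p below 0.05 and 0 passing. Their mean log2 level was 8.99 to 9.26 over the fasted and 9.16 to 9.55 over the refed LG2KO arrays. In controls 3 of the 10 were higher refed, with a median of -0.07 and 0 at an unadjusted p below 0.05. The part of these markers in the Cxcl10 and Icam1 results was not tested. Of 13 immediate early genes 1, or 7.69%, passed in each genotype. Btg2, an antiproliferative factor, fell by 0.89 ± 0.16 in controls (0.0055) and Myc, a growth factor-responsive transcription factor, fell by 1.41 ± 0.26 in LG2KO livers (0.00578). In the other genotype Btg2 differed by -0.17 ± 0.16 (LG2KO, 0.711) and Myc by -0.88 ± 0.26 (controls, 0.0648).

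**Figure D5:**
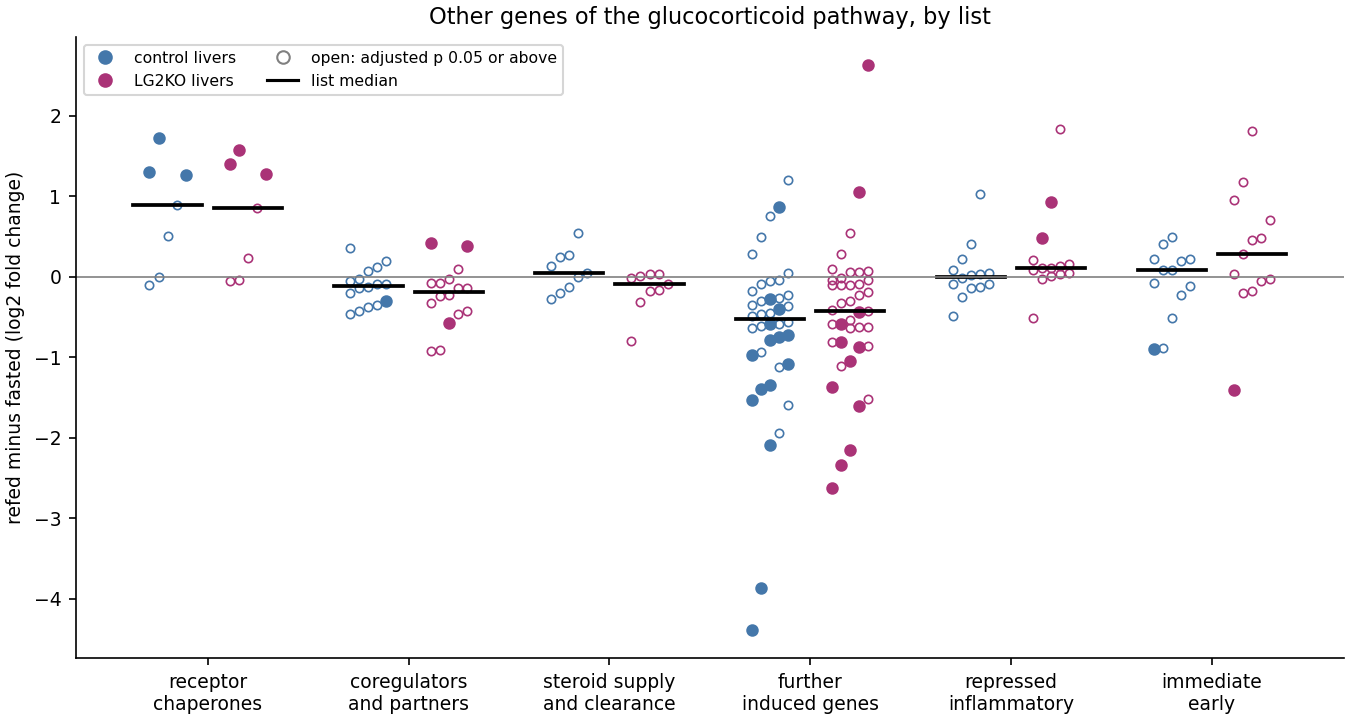
Refed minus fasted difference (log2) of the genes in each list, by genotype, with a line at the list's median and filled symbols for genes that passed. Chaperones and the further induced genes have medians of 0.89 and -0.53 in controls and 0.86 and -0.42 in LG2KO livers, while the medians of the other lists outside the 8 genes lie between -0.19 and 0.29.

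The genotype differences that passed lay in a single list, the further induced genes. In refed livers they were 5% of the 40 measured, beside 0.379% of all genes. The list was chosen with earlier results of these data known. Of the further induced genes 2 passed as higher in refed LG2KO livers, Lcn2, a lipocalin of the acute phase, at 2.84 ± 0.48 (limma, adjusted p = 0.036) and Cdkn1a, the p21 cell cycle inhibitor, at 1.59 ± 0.27 (0.0369). The Cdkn1a call was lost without any single refed array (adjusted p from 0.072 to 0.122, differences of 1.497 to 1.76) and without 3 fasted arrays, namely control replicate 3 (0.0612), LG2KO replicate 1 (0.0571) and LG2KO replicate 2 (0.0634). The Lcn2 call was lost without any single refed array except LG2KO refed replicate 1 (adjusted p from 0.0652 to 0.111, differences of 2.30 to 3.01) and without any of 3 fasted arrays, control replicate 1 (0.0558), LG2KO replicate 1 (0.0532) and LG2KO replicate 2 (0.0634). In the same comparison of refed livers 8 of 10 macrophage markers were higher in LG2KO livers, with a median difference of 0.29, 3 at an unadjusted p below 0.05 and 0 passing. Their mean log2 level was 9.15 to 9.21 over the control and 9.16 to 9.55 over the LG2KO arrays. Of 8 neutrophil markers 6 were measured and 5 of these were higher, with a median of 0.36, 0 at an unadjusted p below 0.05 and 0 passing. Their mean log2 level was 5.32 to 5.57 over the control and 5.44 to 6.46 over the LG2KO arrays. The median of all genes was 0.02, and the part of these markers in the Lcn2 and Cdkn1a results was not tested. In fasted LG2KO livers G6pc was higher by 1.19 ± 0.15 (0.00342). It was the 1 gene of the 40 to pass there, or 2.5%, beside 0.396% of all genes. Averaged over feeding 4 of the 40 passed as higher, G6pc, Cdkn1a, Lpin1 and Lcn2. That is 10%, beside 1.02% of all genes. The other lists had 0 passing genes between genotypes in either feeding state, and 0 genes of any list passed for the interaction. At an unadjusted limma p below 0.05 there were 9 of 40 further induced genes for the interaction, where 4.73% of all genes had such a p. Refed there were 10 of the 40, where 9.13% of all genes had such a p, and 29 of the 40 were higher in LG2KO livers. Fasted there were 5 of the 40, where 5.2% of all genes had such a p, and 20 were higher. Other lists had such genes too. Refed there were 4 of 13 immediate early genes, 1 of 7 chaperones, 1 of 14 inflammatory, 0 of 16 coregulator and 0 of 9 supply genes. In the same order there were 2, 1, 0, 3 and 1 fasted, and 2, 0, 1, 0 and 0 for the interaction.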

How the data were processed

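Liver RNA of 12 pools was hybridised to Affymetrix mouse arrays. The authors deposited log2 values made with RMA, per the submitters' processing notes, with a single value for each probe set on each array. RMA corrects background, gives all arrays 1 distribution of probe values and then summarises probes, so real shifts of the whole distribution would be removed. The deposited values still differed in distribution. Array medians ran from 4.785 (control refed replicate 1) to 4.872 (LG2KO fasted replicate 3). The SD over probe sets was 2.424 and 2.316 on these arrays. Software, version and genome build: not given in the sources used here. Precision is limited by the number of arrays.

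Groups came from titles, genotype and diet labels. Of 45101 probe sets, 34958 had 1 gene symbol in the platform annotation, 932 had several and 9211 had none. Each gene was read from its brightest probe set by mean over the arrays, which gave 18194 genes. Tests used R 4.3.3 with limma 3.58.1 (eBayes with an intensity trend on a group-means lmFit, all 12 arrays, 8 residual degrees of freedom, two-sided), with Benjamini-Hochberg adjustment over all genes within a comparison. The p-values measure the spread between pools. The script was tested on simulated data. Plots were made in Python 3.11.15 with matplotlib 3.10.9.

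The members and gene lists were chosen with earlier results of these data known. Named genes are the 8 members, Slc2a2, up to 6 passing genes per list and comparison, and Per1, Tat, Igfbp1, Pck1, Fkbp4, H6pd and Serpina6 whether or not they passed. For members that passed, the 3 genes most alike are named too. Alternatives were other eBayes settings, array weights, filters on dim genes, only the groups compared, other scalings, other rules for probe sets, a replicate block, leaving out the pair of arrays that stood apart and leaving out each array. Those for the list genes were chosen after seeing the data. Replicate numbers are shared between groups. The deviations of same-numbered arrays correlated from -0.46 to 0.77, with a median r of -0.08, so the arrays were not treated as pairs.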

Additional observations from a re-analysis of the deposited data

How the results depend on the processing

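The count of members that passed was 3 in each refeeding comparison and 0 in the others. In controls it was 1 with arrays centred on their median (Fkbp5), 4 with array weights and 4 without the pair of arrays that stood apart (Fkbp5, Sgk1, Klf9 and Zbtb16 in both), and from 1 to 3 when 1 array was left out. Klf9 did not pass in controls without the intensity trend, with robust eBayes or with only the groups compared. Nor did it pass there with every probe set tested or with the mean of a gene's probe sets. In LG2KO livers the count of members was 6 with array weights and 5 without the pair of arrays that stood apart. Between genotypes in refed livers it was 1 with either of these (Fkbp5). The count of all genes that passed moved as well over the 24 alternatives. It ran from 695 to 2454 for refeeding in controls, 697 to 3578 in LG2KO livers and 8 to 180 between genotypes refed. Fkbp5 passed on refeeding under every alternative run. Zbtb16 and Nr3c1 could not be tested under the filter that keeps the upper 25% of genes. Of 18 pairs of arrays with the same replicate number in different groups, 6 had deviations correlated above 0.1 (median r = -0.08, highest 0.77). Of 12 arrays 6 correlated best with their own number. With the replicate number as a block, 2 members passed in controls (Fkbp5 and Klf9, with Zbtb16 at an adjusted p of 0.053) and 3 in LG2KO livers. Of all alternative values, 57 changed sign, and 0 of them passed. The cause of these changes was not tested.

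Without the pair of arrays that stood apart, the sign changed for Nr3c1 between genotypes refed (0.076) and averaged (0.16) and on refeeding in controls (-0.12), for Hsd11b1 between genotypes fasted (0.032) and averaged (0.0072), for Sgk1 fasted (0.13), for Klf9 fasted (0.11) and averaged (0.032), and for Serpina6 on refeeding in LG2KO livers (-0.11). With array weights it changed between genotypes for Nr3c1 averaged (0.0049), Hsd11b1 fasted (0.043) and averaged (0.0019) and Sgk1 fasted (0.16). With the mean of probe sets it changed for Tsc22d3 between genotypes refed (0.058) and on refeeding in controls (-0.013). With repeated quantile normalization it changed for Icam1 on refeeding in controls (-0.0028).

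Leaving out 1 array gave ranges that cross 0 for these values. For Nr3c1 they were -0.52 to 0.076 (genotype, refed), -0.10 to 0.24 (genotype, fasted), -0.21 to 0.092 (genotype, averaged), -0.12 to 0.48 (refeeding, control) and -0.28 to 0.052 (refeeding, LG2KO). For Tsc22d3 they were -0.15 to 0.080, -0.15 to 0.35 and -0.095 to 0.15 for genotype refed, fasted and averaged, -0.20 to 0.29 for refeeding in controls and -0.39 to 0.10 for the interaction. For Sgk1 they were -0.039 to 0.22, -0.17 to 0.13 and -0.047 to 0.10 for genotype refed, fasted and averaged and -0.052 to 0.25 for the interaction. For Klf9 they were -0.40 to 0.11 (genotype, fasted) and -0.49 to 0.13 (interaction), for Zbtb16 -0.34 to 0.095 (genotype, refed), for Hsd11b1 -0.036 to 0.032 (genotype, fasted) and for Fkbp5 -1e-04 to 0.24 (genotype, averaged). On refeeding in LG2KO livers they were -0.17 to 0.024 for Nfkbia, -0.32 to 0.033 for Irs2, -0.33 to 0.021 for Btg2, -0.039 to 0.12 for H6pd and -0.11 to 0.21 for Serpina6, and in controls -0.045 to 0.12 for Icam1.

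With 3 pools per group, differences smaller than about the printed intervals could not be resolved, and signal over background was not analysed here.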

Other observations

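For the 3 members that passed, the genes whose log2 values ran most alike over the 12 arrays were read among the 9096 genes with a mean above the median of all genes. The arrays share 4 groups, so a high Pearson r mostly says that 2 genes differ between the same groups, and r is a description with no test. For Fkbp5 the most alike were Got1, an aspartate aminotransferase, with r = 0.980, St3gal5, a ganglioside synthase, with r = 0.968, and Hal, which breaks down histidine, with r = 0.968. For Klf9 they were Rbl2, a relative of the retinoblastoma protein, with r = 0.983, Gas5, a non-coding RNA, with r = 0.977, and Cps1, the first enzyme of the urea cycle, with r = 0.975. For Zbtb16 they were Wee1, a kinase that holds back mitosis, with r = 0.946, Csnk2a2, a casein kinase subunit, with r = 0.925, and Gpcpd1, a phosphodiesterase, with r = 0.910. Got1 was itself among the further glucocorticoid-induced genes.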
